A study of Mus musculus with 22 samples.

Results

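Pancreas CD11c+CD8α- dendritic cells (DCs) of C57BL/6 mice that had spent 18 h in culture with PBS were compared with such cells taken straight from the tissue. The comparison used all arrays that the labels place in these groups, 8 of the 22 in the series. The cells of 5 week old females were pre-separated with CD45 beads after enzymatic digestion of the pancreas and sorted by flow cytometry as CD11c+CD8α-. The steady-state group held 4 arrays (replicates 1, 4, 5 and 6) and the PBS group 4 arrays (replicates 1 to 4), each from a pool of 10 pancreases. Values of 3 other groups, prepared in the same way, are used where named: C57BL/6 cells cultured for 18 h with LPS (3 arrays, replicates 2 to 4), NOD cells at steady state (3 arrays, replicates 1, 4 and 6) and NOD cells with PBS for 18 h (4 arrays). The series description calls the cultures another experiment, while the methods describe a sort that was divided, with part of the cells lysed at once and the rest cultured. Whether arrays that share a replicate number (1 and 4) come from a single sort is therefore not known, and they were not paired. Culture, cell handling and experiment therefore cannot be told apart, and PBS served the study as the control of LPS, not as a treatment of interest. The arrays, Mouse Genome 430 2.0, carry probe sets that each measure a transcript, and a level here is the log2 RMA signal of a probe set. A difference is always PBS culture minus steady state on this log2 scale, given ± its standard error (SE), so that a difference of 1 is a doubling of the signal. Per-array values are written in the order of the replicate numbers.

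DCs take up material in tissues and present fragments of it to T cells. An immature DC carries lectin and scavenger receptors for uptake. A maturing DC lowers these, raises costimulators such as CD40, CD80 and CD86, moves peptide-loaded major histocompatibility complex (MHC) to its surface and raises the chemokine receptor CCR7, which guides it to lymph nodes. Isolation and culture alone, with no microbial ligand, are known to start part of this programme. Pancreas tissue also holds macrophages that express CD11c, and digestion frees the very abundant messenger RNAs of acinar cells, which make the digestive enzymes and can adhere to or be taken up by other cells.

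The groups stood far apart. The distance between arrays over 45037 probe sets averaged 209.4 between the groups, 51.6 within the steady-state group and 78.0 within the PBS group, in log2 units summed as a Euclidean distance. With limma at a Benjamini-Hochberg adjusted p under 0.1, 72.7% of the 45037 probe sets were called, 18981 higher and 13754 lower in PBS culture. The study bounded the false discovery rate at a like level, but by a multivariate permutation test, which was not used here. Of 18193 genes, each given by its brightest probe set, 76.9% were called, 44.6% higher and 32.3% lower, and 64.8% had no overlap between the groups. Being called thus separates few genes from the rest, and a list whose called shares lie near these is not set apart by its calls. For each list the genes that were called and also changed at least 2-fold are therefore counted too, a size rule added after the values were seen, which 21.2% of genes met, 7.76% higher and 13.5% lower. The median difference of all genes was 0.17, with the 5th and 95th percentiles at -1.72 and 1.31. The medians of the 8 arrays were level after the normalization (7.63 to 7.68), while the ribosomal protein genes lay lower in PBS culture. Scaling the arrays to that list instead would move every difference up by 0.70 and give 33831 probe sets higher among 39720 called, and a direction that turns under it is marked. The dimmest 25% of genes had a median difference of 0.30 with 57.8% called higher, so small rises of dim genes are common. The values carry no detection calls. For 32 of the genes given below the dimmer group lay under the highest lower quartile of the arrays (6.316), among the dim probe sets, and the size of such a difference is uncertain. Signs of RNA quality moved with the groups too: the 3' probe set of Gapdh exceeded its 5' probe set by 1.96 to 3.17 at steady state and by 0.97 to 1.25 in PBS culture, and the 18S rRNA probe set lay at 13.80 to 14.61 and 14.86 to 14.97. Their part in the results was not tested.

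The sort was checked against its markers. Itgax, which encodes CD11c, lay at 11.27, 11.33, 11.39 and 11.29 at steady state and at 9.08, 9.01, 8.93 and 9.10 in PBS culture, a difference of -2.29 ± 0.09 (adjusted p = 2.84e-09). Ptprc, the gene of CD45, was bright in every array (13.29 to 13.46 and 12.41 to 12.84). The DC genes Flt3, a cytokine receptor, and Zbtb46, a transcription factor, lay at 9.28 to 9.62 and 9.41 to 9.72 at steady state and differed by 0.36 and 0.44. Neither call held with the replicate number as a block, and Zbtb46 differed by 0.0018 when its probe sets were averaged. Itgam, the CD11b gene of CD8α- DCs and macrophages, lay at 10.71 to 11.01 and 9.79 to 10.40 (-0.74 ± 0.14, and not called after the ribosomal scaling at -0.04). Cd8a, whose product the sort excluded, was at 7.22 to 7.77 at steady state and 8.79 to 10.34 in PBS culture, highest in PBS replicate 3. Macrophage genes were among the brightest of the sort, with Csf1r, the receptor of the macrophage growth factor, at 14.71 to 14.88 and Adgre1, which encodes F4/80, at 12.91 to 13.18 at steady state. In bulk samples, fewer cells of a type and less RNA per cell cannot be told apart.

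The promoters of 4 genes that rose are shown because their windows hold letters that maturation and interferon factors are known to bind. Each is 300 bases of RefSeq sequence (GRCm38.p6), 5' to 3' on the gene's strand, from 250 bases before the transcription start to 50 after it, with the matched letters in capitals. Pdcd1lg2 (PD-L2, which restrains T cells; chr19:29410669-29410968, plus strand) and Tnfrsf9 (4-1BB, a costimulatory receptor; chr4:150927749-150928048, plus strand, 1 of its annotated starts) have an NF-kB match, 244 and 43 bases before the start. Tnfrsf9 has an AP-1 match (TGANTCA) 15 bases before it as well. Ifit1 (chr19:34640639-34640938, plus strand) and Oas1a (chr5:120907476-120907775, minus strand), both antiviral genes induced by interferon, hold 2 matches each to the core of the interferon-stimulated response element (ISRE, GAAANNGAAA), which overlap in Oas1a.
Pdcd1lg2: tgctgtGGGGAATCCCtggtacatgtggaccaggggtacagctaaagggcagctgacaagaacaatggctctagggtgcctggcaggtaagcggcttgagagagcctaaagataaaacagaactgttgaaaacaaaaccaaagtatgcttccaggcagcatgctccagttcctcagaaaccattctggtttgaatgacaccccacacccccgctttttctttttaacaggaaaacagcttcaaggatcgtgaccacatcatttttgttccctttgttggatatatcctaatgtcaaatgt
Tnfrsf9: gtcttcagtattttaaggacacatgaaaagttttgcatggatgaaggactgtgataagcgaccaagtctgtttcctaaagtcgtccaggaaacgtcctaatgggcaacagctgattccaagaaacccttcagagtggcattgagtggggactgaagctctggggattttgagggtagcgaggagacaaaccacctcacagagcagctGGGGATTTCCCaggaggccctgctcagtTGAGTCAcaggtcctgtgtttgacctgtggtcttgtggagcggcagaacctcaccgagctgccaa
Ifit1: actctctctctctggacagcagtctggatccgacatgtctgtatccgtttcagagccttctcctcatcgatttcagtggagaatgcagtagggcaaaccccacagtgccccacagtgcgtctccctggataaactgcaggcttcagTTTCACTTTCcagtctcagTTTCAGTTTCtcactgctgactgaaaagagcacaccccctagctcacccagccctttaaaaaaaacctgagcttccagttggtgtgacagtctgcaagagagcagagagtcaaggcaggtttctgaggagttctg
Oas1a: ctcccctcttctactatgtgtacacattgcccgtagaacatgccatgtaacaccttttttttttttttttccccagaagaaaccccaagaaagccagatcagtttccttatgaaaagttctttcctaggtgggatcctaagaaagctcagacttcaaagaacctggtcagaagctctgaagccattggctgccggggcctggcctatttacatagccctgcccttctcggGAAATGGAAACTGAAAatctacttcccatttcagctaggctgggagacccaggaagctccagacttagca
Both strands were searched. Among all 32851 such promoter windows, 3.44% held the ISRE core, 8.46% an NF-kB match and 7.81% an AP-1 match. Windows were found for 20 of the 27 interferon-stimulated genes that rose, and 13 of their 24 windows (54.2%) held the ISRE core, with an NF-kB match in 5 (20.8%) and an AP-1 match in 7 (29.2%). For the maturation genes that rose, 16 of 22 had windows, and of 19 windows 1 held the ISRE core (5.26%, Serpinb9), 2 an NF-kB match (10.5%) and 3 an AP-1 match (15.8%, in Il15ra, Tnfrsf9 and Cd80). The searches were chosen after the changes of these genes were known, and a match is not a binding site.

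Across all genes, the steepest rises included inflammatory, interferon-induced and cytotoxic genes, and the steepest falls included genes known from tissue macrophages. Cxcl11, a chemokine for activated T cells, lay at 6.82, 5.38, 6.48 and 6.13 at steady state and at 13.65, 13.59, 13.48 and 13.54 in PBS culture. This was a difference of 7.36 ± 0.24 (adjusted p = 4.39e-10), the highest of all genes, from a steady-state level near the lower quartile of the arrays. Acod1, the enzyme that makes itaconate in activated macrophages and DCs, went from 6.52, 6.93, 6.68 and 7.08 to 13.72, 13.73, 13.71 and 13.70, a rise of 6.91 ± 0.13. Its 4 PBS values were nearly equal. The other genes at the top were the granzyme Gzmc (6.72), the POU-domain transcription factor Pou3f1 (6.33), the chemokine Cxcl3 (6.31), the host gene of microRNA-155 Mir155hg (6.27), the chloride channel family gene Clic5 (6.19), the prostaglandin E synthase Ptges (6.05), the lipase Lipg (5.94), podoplanin, Pdpn (5.88), Pcp4 (5.72) and the interferon-stimulated gene Ifit1bl1 (5.61). None of these 12 genes overlapped between the groups, which the rule that names them required.

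At the other end, Abca9, a lipid transporter family gene, fell from 13.20, 13.07, 12.97 and 13.004 to 6.07, 6.10, 6.46 and 6.13, a difference of -6.87 ± 0.12 (adjusted p = 1.63e-11). Its PBS values were close to the lower quartile of the arrays (6.028 to 6.316), the range of the dim probe sets. Other steep falls were those of Mctp1 (-6.10), fibronectin, Fn1 (-5.83), the complement receptor Vsig4 (-5.81), the sulfotransferase Sult1a1 (-5.49), the haemoglobin scavenger receptor Cd163 (-5.42), Klhl13 (-5.36), the hyaluronan receptor Lyve1 (-5.34), the G protein-coupled receptor Gpr34 (-5.33), Poglut3 (-5.09), Rgs18 (-5.02) and the lectin Clec10a (-4.98). Vsig4, Lyve1, Cd163 and Gpr34 are known as genes of tissue macrophages.

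**Figure D1:**
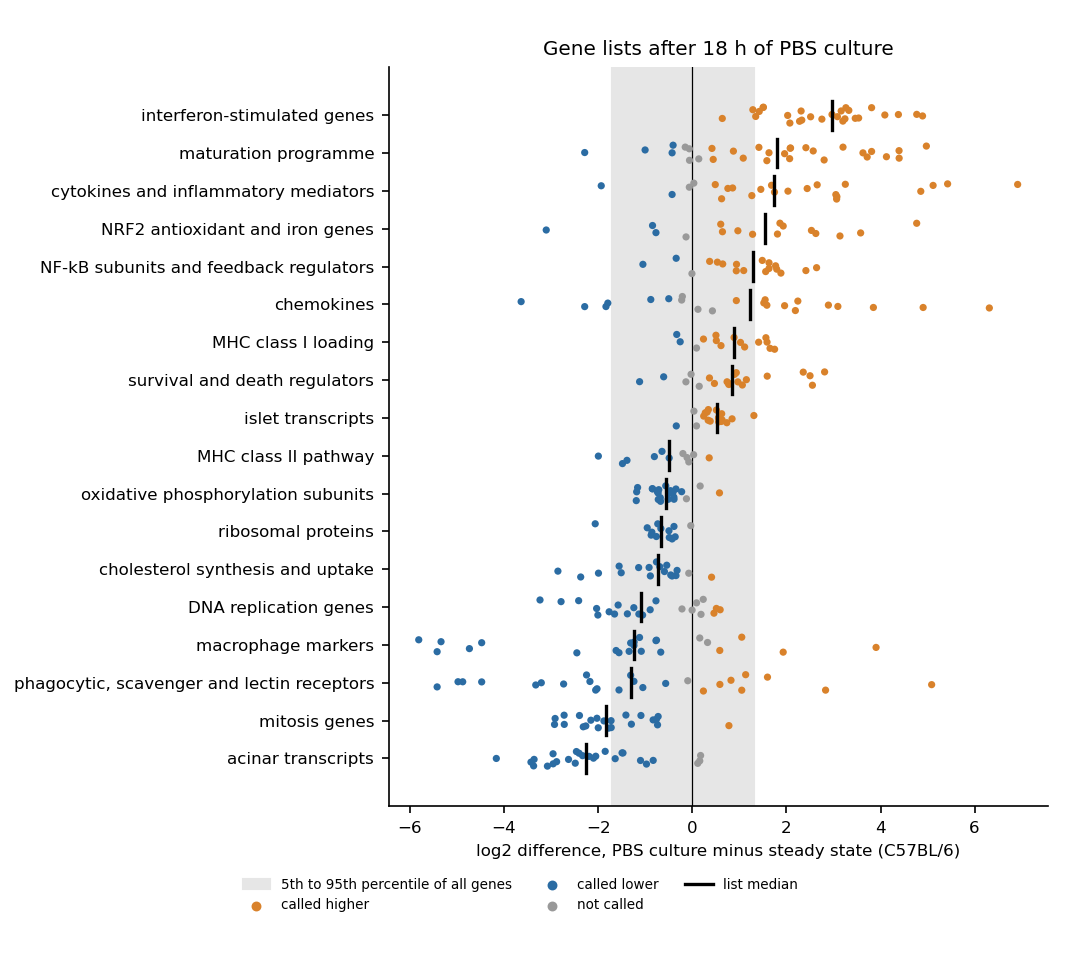
Median log2 difference (PBS culture minus steady state, x axis) of each gene list, where points are genes coloured by their call, black bars are list medians and the grey band spans the 5th to 95th percentile of all genes. Of the 18 lists plotted, the interferon-stimulated list has the highest median (2.97) and the acinar list the lowest (-2.26).

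The genes of the DC maturation programme rose as a group. Of 30 measured genes, 22 rose and 4 fell, 19 and 2 of them at least 2-fold, against 7.76% and 13.5% of all genes, and the median difference was 1.80 against 0.17. The summed linear signal of the list was 47123 to 53737 at steady state and 156730 to 172460 in PBS culture. Ccr7 lay at 9.18, 9.34, 9.33 and 9.58 at steady state and at 13.21, 13.52, 13.79 and 13.41 in PBS culture, a rise of 4.13 ± 0.14 (adjusted p = 5.24e-10). The highest steady-state array was thus far under the lowest PBS array. Cd274 (PD-L1, which restrains T cells) rose from 8.63, 8.60, 8.59 and 8.78 to 13.12, 13.06, 12.91 and 13.08 (4.40 ± 0.10). Il15ra, which presents interleukin-15 to lymphocytes, rose from 8.63, 8.83, 8.90 and 8.41 to 12.98, 13.25, 13.02 and 13.07 (4.39 ± 0.13). Cd200, a ligand that restrains myeloid cells, rose from 6.82, 7.18, 7.22 and 7.51 to 12.06, 12.47, 12.10 and 11.99 (4.97 ± 0.16). In each of these the 4 PBS arrays formed a narrow range well above all 4 steady-state arrays. Smaller rises were seen in Fscn1, the actin-bundling protein of DC dendrites (2.07), the NF-kB subunit Relb (1.63), the cytokine signal inhibitor Socs2 (2.57), the adaptor Traf1 (2.41), Serpinb9, an inhibitor of granzyme B (3.81), and Pdcd1lg2 (2.80).

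Some maturation genes did not follow. Cd83, a surface marker of mature DCs, was already bright at steady state (12.56, 12.60, 12.36 and 12.83) and lay at 12.06, 12.19, 12.22 and 12.26 in PBS culture, a fall of -0.41 ± 0.12 (adjusted p = 0.00883) that turns to 0.29 after the ribosomal scaling. Ccl17, a chemokine of mature DCs for T cells, fell from 11.11, 10.74, 11.13 and 11.07 to 9.09, 9.26, 8.05 and 8.50 (-2.29 ± 0.23), while Ccl22, which binds the same receptor, rose from 10.66, 10.63, 10.52 and 10.97 to 11.97, 12.40, 12.71 and 12.03 (1.59 ± 0.17). These neighbouring chemokine genes moved in opposite directions, without overlap between the groups in either. Il12b, the p40 subunit of IL-12 and IL-23, was at 8.14, 8.24, 8.23 and 8.37 and 8.49, 8.40, 8.07 and 7.76, a difference of -0.06 ± 0.15 (adjusted p = 0.727; 0.64 after the ribosomal scaling). Its other probe set was called lower.

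**Figure D2:**
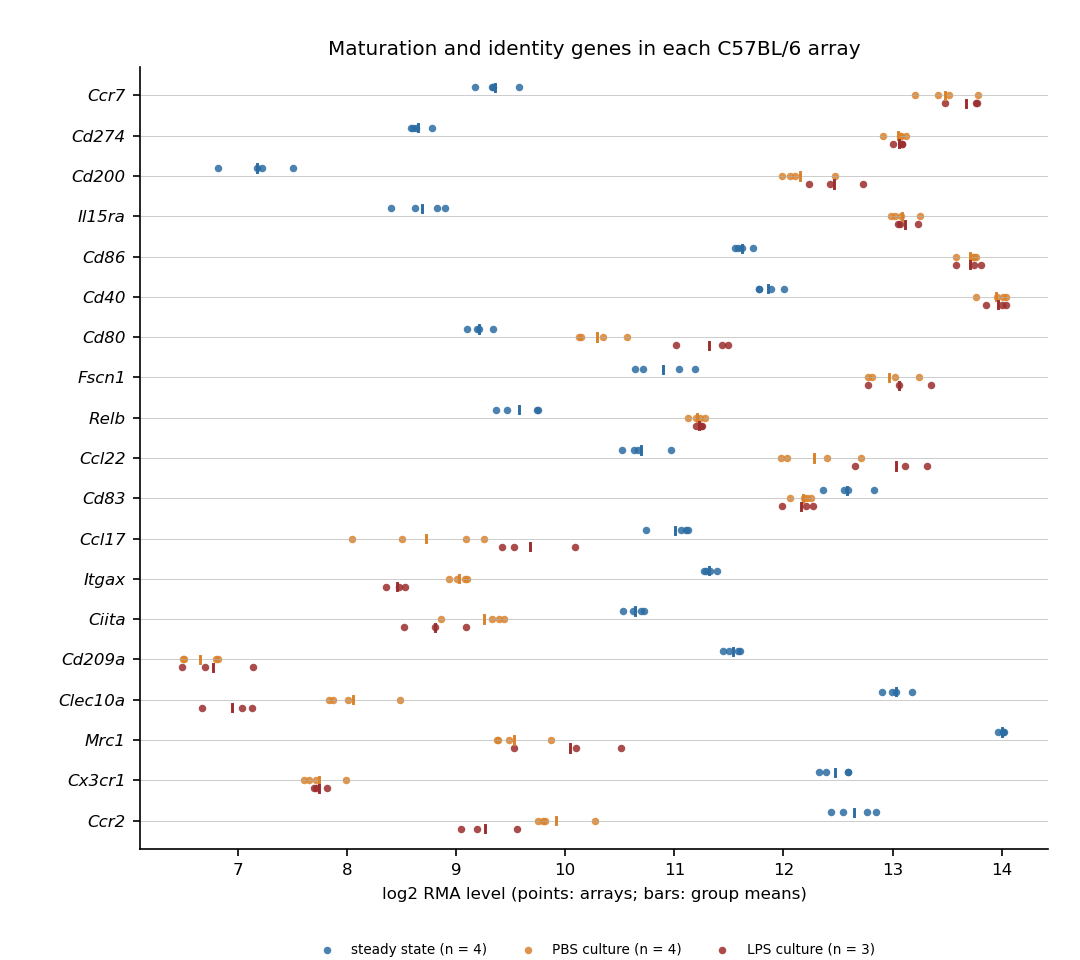
Log2 RMA signal of maturation and cell identity genes (x axis) in each C57BL/6 array, with points for arrays and bars for the means of the steady state, PBS and LPS groups. Mrc1 and Cx3cr1 are also on the macrophage list and Ccr2 is on the monocyte list. Ccr7, Cd274, Cd200 and Il15ra stand far higher in all 4 PBS arrays, Cd83 differs by -0.41 (0.29 after the ribosomal scaling), and Mrc1, Cd209a and Clec10a stand far lower.

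Genes of costimulators and coinhibitors, which set the response of the T cell, were mostly higher. Of 15 such genes 11 rose and 2 fell, with 9 and 1 at least 2-fold and a median of 1.24. Cd40, Cd80, Cd86, Cd274, Pdcd1lg2, Icosl and Cd200 are also on the maturation list, so these lists are not independent. Cd40 lay at 11.77, 11.78, 11.89 and 12.01 and rose to 13.96, 14.01, 13.77 and 14.04 (2.08 ± 0.11, adjusted p = 1.45e-08). Cd86 rose from 11.62, 11.72, 11.55 and 11.58 to 13.74, 13.76, 13.58 and 13.74 (2.09 ± 0.10). Cd80 rose from 9.34, 9.10, 9.20 and 9.21 to 10.15, 10.56, 10.35 and 10.13 (1.08 ± 0.12) and all 4 of its probe sets were called higher. The groups overlapped in none of the 3, and the rise of Cd80 was smaller than those of Cd40 and Cd86. Only 1 of the 2 probe sets of Cd86 was called. Tnfsf4, the ligand of OX40, rose by 3.94 ± 0.13, and Slamf1, a self-binding receptor of leukocytes, by 4.25 ± 0.32 with its highest value in PBS replicate 2 (10.40, 11.92, 10.00 and 10.89).

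Antigen presentation genes split by class. Of 11 MHC class II pathway genes 1 rose and 6 fell (0 and 3 at least 2-fold), with a median of -0.49 (0.21 after the ribosomal scaling). H2-Ab1, the beta chain of I-A, lay at 14.37, 14.37, 14.42 and 14.32 at steady state and at 13.94, 13.85, 13.90 and 13.84 in PBS culture (-0.49 ± 0.09; 0.21 after the ribosomal scaling), and stayed among the brightest genes of both groups. Ciita, the master activator of these genes, fell from 10.70, 10.62, 10.53 and 10.72 to 9.33, 9.44, 8.87 and 9.39 (-1.39 ± 0.13). The peptide-editing genes H2-Ob (-1.995), H2-DMa (-1.48) and H2-DMb2 (-0.81) were lower too, the last no longer called after the ribosomal scaling (-0.10). In contrast 12 of 15 genes of MHC class I loading rose and 2 fell, 7 and 0 of them at least 2-fold, at a median of 0.89. The peptide transporter Tap2 (1.75 ± 0.10), the immunoproteasome subunits Psmb9 (1.65 ± 0.12) and Psmb10 (1.59 ± 0.10), and Nlrc5, the activator of class I genes (1.56 ± 0.10), had the largest rises of this list.

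Uptake receptors moved the other way. Among 25 phagocytic, scavenger and lectin receptors, 16 fell and 8 rose (15 and 5 at least 2-fold), with a median of -1.31. Mrc1, the mannose receptor, lay at 14.01, 14.03, 13.97 and 14.01 at steady state, near the top of the scale, and at 9.38, 9.49, 9.37 and 9.87 in PBS culture (-4.47 ± 0.12, adjusted p = 1.38e-10). Cd209a, a DC-SIGN family lectin, fell from 11.45, 11.60, 11.59 and 11.50 to 6.5, 6.5, 6.80 and 6.82 (-4.88 ± 0.11). Clec10a fell from 13.18, 12.996, 12.91 and 13.03 to 8.01, 7.84, 8.49 and 7.87 (-4.98 ± 0.14), and the related Mgl2, a marker of CD8α- DCs, by -4.18 ± 0.19. These lectins were tight among the steady-state arrays and far lower in every PBS array. The main exception was Clec4e (Mincle, a receptor for mycobacterial glycolipid and dead cells), which rose from 7.37, 7.50, 7.55 and 8.23 to 12.58, 12.92, 12.86 and 12.63 (5.09 ± 0.18).

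The receptor complex for LPS itself changed little or fell. Over 20 Toll-like receptor and LPS receptor genes 8 rose and 7 fell, 4 and 1 at least 2-fold, with a median of 0.077. The shares called were near the 44.6% higher and 32.3% lower of all genes. Tlr4, the LPS receptor, was at 11.73, 11.61, 11.63 and 11.66 and 11.97, 11.51, 11.61 and 11.87 (0.08 ± 0.12, adjusted p = 0.546), with overlapping groups, and 1 of its 4 probe sets was called. Cd14, which hands LPS to the receptor, fell from 13.23, 13.06, 13.05 and 13.44 to 12.26, 12.32, 12.86 and 11.98 (-0.84 ± 0.17), a change no longer called after the ribosomal scaling (-0.14), under which Tlr4 was called higher (0.78). The flagellin receptor Tlr5 fell by -2.92 ± 0.18. Rises were measured for Cd180, a relative of Tlr4 (2.14 ± 0.20), the DNA receptor Tlr9 (1.97 ± 0.14) and Irak3, a brake on this signalling (1.75 ± 0.13).

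Among chemokine receptors, those of DCs bound for the lymph node and of monocytes moved apart. Of 14 receptors 8 rose and 5 fell (5 and 4 at least 2-fold; median 0.46). Beside the rise of Ccr7, Cx3cr1, the fractalkine receptor, fell from 12.32, 12.59, 12.39 and 12.59 to 7.99, 7.66, 7.71 and 7.61 (-4.73 ± 0.12). Ccr2, which brings monocytes into tissue, fell from 12.44, 12.77, 12.85 and 12.55 to 9.82, 9.80, 9.75 and 10.28 (-2.74 ± 0.14). The PBS values of both lay far below all steady-state values. Ccrl2 (2.33 ± 0.23), a receptor that binds chemerin, and Ccr9, a gut-homing receptor (1.53 ± 0.15), rose. Of 22 chemokines 12 rose and 6 fell (11 and 4 at least 2-fold; median 1.23). Cxcl10 and Cxcl9, ligands with Cxcl11 of the receptor CXCR3, rose by 4.91 ± 0.11 and 3.85 ± 0.19, and Ccl6 fell from 14.12, 14.08, 14.09 and 14.17 to 10.49, 10.35, 10.53 and 10.54 (-3.64 ± 0.09).

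Inflammatory mediators rose without any added LPS. Of 23 cytokines and mediators 19 rose and 2 fell, 15 and 1 of them at least 2-fold, and the median was 1.75. Tnf lay at 7.89, 8.02, 7.91 and 8.48 at steady state and at 11.15, 11.23, 11.11 and 11.09 in PBS culture (3.07 ± 0.14, adjusted p = 4.68e-09). Il6 rose from 6.87, 7.53, 7.22 and 8.68 to 10.66, 11.14, 10.42 and 10.28 (3.05 ± 0.32). Ptgs2, the inducible cyclooxygenase, rose from 6.32, 7.30, 5.97 and 7.86 to 12.23, 12.66, 12.22 and 12.06 (5.43 ± 0.34). The steady-state arrays of Il6 and Ptgs2 were more spread than the PBS arrays, with replicate 6 highest in each, yet neither gene overlapped. Nos2, the inducible nitric oxide synthase, rose from 6.30, 6.24, 6.32 and 6.16 to 11.15, 11.62, 11.32 and 11.40 (5.12 ± 0.12), and Il1rn, the natural blocker of the IL-1 receptor, from 9.48, 9.70, 9.94 and 9.98 to 14.63, 14.68, 14.59 and 14.61 (4.86 ± 0.12). Il1b itself moved little: it was at 10.39, 11.04, 10.56 and 11.25 and 11.04, 11.66, 11.38 and 11.12, an increase of 0.49 ± 0.20 (adjusted p = 0.0445) with overlapping groups that was no longer called when steady-state replicate 1 or 5 or PBS replicate 2 was left out, or with the replicate block. Il10, which dampens inflammation, rose by 1.27 ± 0.21.

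Of 18 NF-kB subunits and feedback regulators 15 rose and 2 fell (10 and 1 at least 2-fold; median 1.29). The inhibitor Nfkbib (2.64 ± 0.09), the subunits Rel (1.88 ± 0.13) and Relb (1.63 ± 0.12) and the coactivator Bcl3 (1.79 ± 0.12) led the list, so both activating and restraining members were higher.

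**Figure D3:**
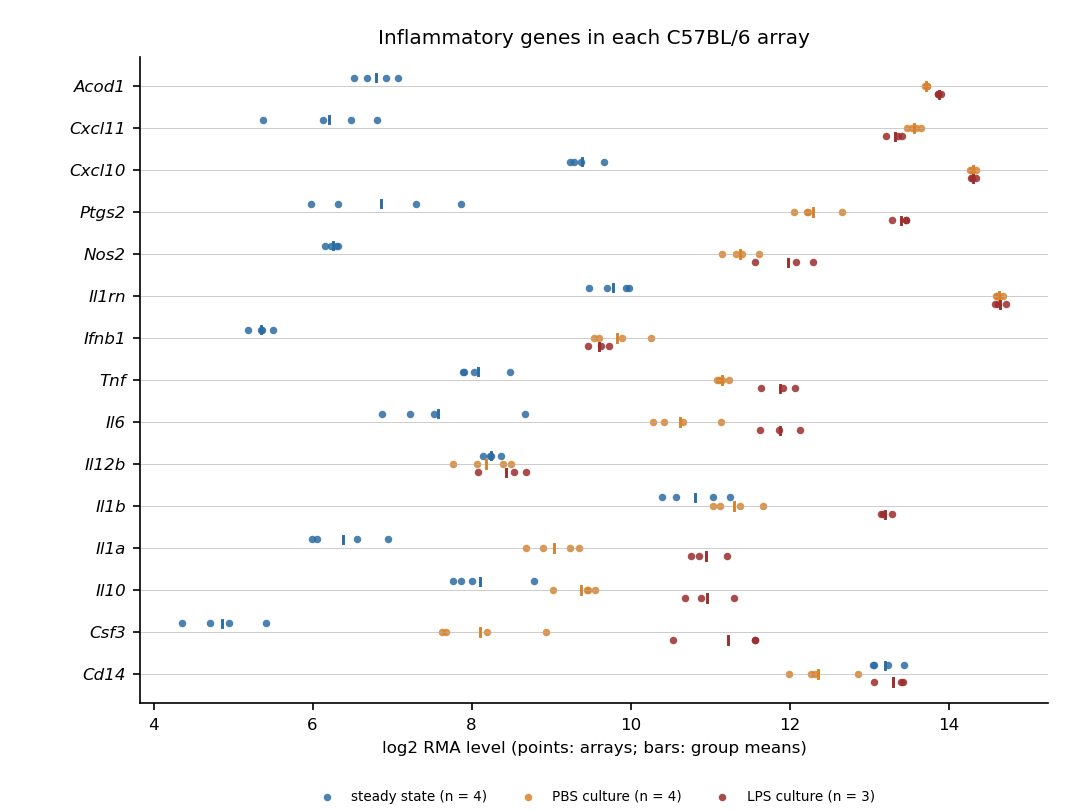
Log2 RMA signal (x axis) of inflammatory genes in each C57BL/6 array at steady state, with PBS and with LPS, with points for arrays and bars for group means. Acod1, Cxcl10 and Il1rn reach in PBS culture nearly the level seen with LPS, whereas Il1b, Il1a, Il10 and Csf3 lie higher in the LPS arrays. Il1rn lies close to the highest signal of the PBS arrays (14.84 to 14.94), and whether a ceiling holds it there was not tested.

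All 27 of the 27 measured interferon-stimulated genes rose, 26 of them at least 2-fold, with a median of 2.97, the highest of the lists. Ifit1, whose promoter is shown above, lay at 9.98, 9.85, 9.64 and 9.97 at steady state and at 14.06, 13.97, 13.86 and 13.92 in PBS culture (4.09 ± 0.11, adjusted p = 1.28e-10). Oas1a was bright before culture and rose from 12.53, 12.68, 12.66 and 12.47 to 13.99, 13.87, 13.90 and 13.99 (1.35 ± 0.10). Irf7, the transcription factor that amplifies the interferon response, rose from 9.54, 9.87, 9.54 and 9.28 to 13.93, 13.87, 14.03 and 13.92 (4.38 ± 0.13). From different steady-state levels, these genes lay in a narrow range near the top of the scale in PBS culture. Cmpk2 (4.89 ± 0.09), a mitochondrial nucleotide kinase, and Oasl1 (4.77 ± 0.12) rose as far. The gene of an inducing cytokine rose as well: Ifnb1, which encodes interferon beta, went from 5.5, 5.36, 5.18 and 5.36, below the lower quartile of the arrays, to 9.89, 9.61, 10.26 and 9.54 (adjusted p = 6.87e-10), a rise whose size is uncertain.

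Macrophage genes were more often lower than higher. Of 23 macrophage markers 17 fell and 4 rose (14 and 3 at least 2-fold), with a median of -1.24, and their summed linear signal was 206920 to 227340 at steady state and 123090 to 141080 in PBS culture. Csf1r stayed bright but fell from 14.88, 14.78, 14.71 and 14.84 to 13.61, 13.26, 13.57 and 13.41 (-1.34 ± 0.11), and Adgre1 from 13.18, 12.96, 12.91 and 13.14 to 12.08, 11.76, 12.08 and 11.95 (-1.08 ± 0.11). Spic, a transcription factor of haem-recycling macrophages, rose from 8.87, 8.09, 8.07 and 8.53 to 12.45, 12.02, 12.58 and 12.14 (3.91 ± 0.19), and Hmox1, which breaks down haem, from 12.32, 12.24, 12.20 and 12.06 to 14.13, 14.05, 14.42 and 13.95 (1.93 ± 0.12). The third gene of this list with a rise of at least 2-fold was Fcgr1, an IgG receptor (1.05 ± 0.10). Cd163, which clears haemoglobin, had fallen steeply in the same arrays, from 13.38, 13.25, 13.40 and 13.25 to 7.11, 8.41, 8.25 and 7.82. Of 10 monocyte markers 5 rose and 5 fell (3 and 5 at least 2-fold; median -0.56 (0.14 after the ribosomal scaling)). They included the fall of F13a1, a clotting factor subunit (-4.96 ± 0.13), and the rises of Vcan, a matrix proteoglycan (2.90 ± 0.10), and Ms4a4c, a membrane protein gene (3.02 ± 0.09).

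DC identity genes were lower more often than higher, but the median of the core list was -0.018 after the ribosomal scaling. Of 15 core genes 8 fell and 5 rose (5 and 1 at least 2-fold; median -0.72), among them Kmo, an enzyme of tryptophan breakdown (-2.85 ± 0.11), and the inhibitory receptor Btla (-1.94 ± 0.25), while Spi1, the gene of the factor PU.1, rose by 1.5 ± 0.16. CD8α- DC markers fell in 8 and rose in 3 of 14 genes (5 and 0 at least 2-fold; median -0.57 (0.13 after the ribosomal scaling)), with Irf4, a factor of this subset, lower by -1.12 ± 0.15 and the calcium-binding S100a4 by -1.87 ± 0.13. Markers of CD8α+ or CD103+ DCs fell in 7 and rose in 4 of 12 (6 and 3 at least 2-fold; median -1.12), with the lipid amidase Naaa (-3.09 ± 0.10), the CD103 gene Itgae (-2.22 ± 0.22) and Gcsam (-2.67 ± 0.14) lower. Xcr1, a receptor specific to that subset, went from 8.17 to 8.68 to 6.62 to 7.28, and Batf3, its transcription factor, from 10.29 to 10.73 to 8.97 to 9.39. Ly75 (DEC-205), which maturing DCs of other subsets also raise, went up by 2.43 ± 0.14. Plasmacytoid DC markers showed no common direction (5 higher and 2 lower of 10, 4 and 2 at least 2-fold; median 0.14). Klk1, a kallikrein that acinar cells also make (-2.05 ± 0.28), and the transcription factor Tcf4 (-1.16 ± 0.11) were lower and the lymphoid marker Ly6d higher (1.5 ± 0.22). Siglech, which marks plasmacytoid DCs, was at 9.86 to 10.43 and 9.43 to 10.93 and not called, but it was called lower without PBS replicate 3 (-0.57), with array weights (-0.46) and with the replicate block (-0.74).

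**Figure D4:**
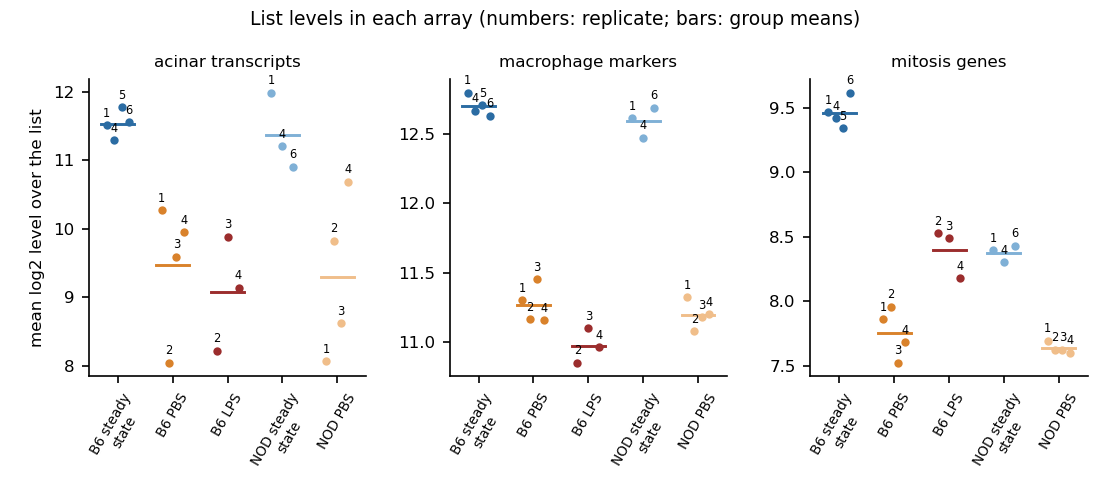
Mean log2 RMA signal over the acinar, macrophage and mitosis lists (panels) in each array of 5 groups, C57BL/6 (B6) at steady state, with PBS and with LPS and NOD at steady state and with PBS. Points are arrays with their replicate number and bars group means, and the acinar list is lower and more spread in the B6 PBS arrays, with replicate 2 lowest.

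Transcripts of the exocrine pancreas, which DCs are not known to make, were bright at steady state and lower after culture. Of 26 acinar transcripts 23 fell and 0 rose, with 21 falling at least 2-fold and a median of -2.26. Cela1, an elastase, lay at 13.70, 13.45, 13.99 and 13.71 at steady state and at 11.82, 7.82, 10.30 and 11.21 in PBS culture (-3.43 ± 0.64, adjusted p = 6.20e-04). Pnliprp1, a lipase, went from 12.78, 12.34, 13.24 and 12.96 to 10.23, 6.37, 8.24 and 9.82 (-4.16 ± 0.65). Prss2, a trypsinogen, went from 12.92, 12.80, 13.33 and 12.63 to 12.24, 7.29, 10.64 and 11.57 (-2.49 ± 0.80). In each gene the groups stood apart, but the 4 PBS arrays spread over several log2 units, with replicate 2 lowest and replicate 1 highest. Without PBS replicate 2 the median of the list was -1.69, 23 genes were still called lower, and Cela1 differed by -2.61. The summed linear signal of the list was 151550 to 208250 at steady state and 11973 to 75029 in PBS culture, a range far wider than that of the maturation list in the same arrays. The carboxypeptidase Cpa1 (-2.88 ± 0.57), the lipase Cel (-3.37 ± 0.68) and Gp2, a zymogen granule protein (-3.36 ± 0.37), had the same order of PBS arrays.

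Reg family genes, secreted lectin-like proteins of acinar cells, fell in 6 of 7 and rose in 1 (5 and 0 at least 2-fold; median -1.28). Reg1 followed the enzymes, from 13.51, 13.24, 13.76 and 13.32 to 11.75, 7.98, 10.94 and 11.52 (-2.91 ± 0.64), again lowest in PBS replicate 2. Reg2 (-3.15 ± 0.67) and Reg3a (-1.28 ± 0.25) were lower too. Islet transcripts were mostly called higher by small amounts: 17 of 20 rose and 1 fell, 1 and 0 by at least 2-fold, with a median of 0.54, and 5 of them lay under the lower quartile of the arrays in both groups. Ins2, an insulin gene, lay at 7.83, 7.88, 7.53 and 7.90 and 8.33, 8.36, 7.90 and 7.90 (0.34 ± 0.14, adjusted p = 0.0543), a call that was lost without steady-state replicate 5 or PBS replicate 1 or 2 and with the replicate block. The hormone gene Sst (0.63 ± 0.15) and the islet transcription factors Nkx6-1 (0.85 ± 0.14) and Pdx1 (0.73 ± 0.13) were slightly higher. The glucagon gene Gcg was at 6.79, 8.35, 7.30 and 8.64 and 8.93, 9.41, 9.08 and 8.90 (1.31 ± 0.34). Of 11 duct and epithelial genes 1 rose and 2 fell (1 and 0 at least 2-fold; median -0.057 (0.64 after the ribosomal scaling)), the rise being Car2, a carbonic anhydrase (2.18 ± 0.14). The falls were those of the cadherin Cdh1 (-0.89 ± 0.21, and not called after the ribosomal scaling at -0.19) and the keratin Krt7 (-0.26 ± 0.12, turning to 0.45 after the ribosomal scaling).

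Other stromal transcripts went both ways, and the median of the fibroblast list was -0.057 after the ribosomal scaling. Fibroblast genes fell in 7 and rose in 4 of 12 (5 and 2 at least 2-fold; median -0.76), led by the collagen gene Col3a1, from 10.80, 10.50, 11.16 and 11.27 to 7.22, 7.11, 6.79 and 7.36 (-3.81 ± 0.18), and Dpt, a matrix protein (-3.75 ± 0.27), with the matrix genes Sparc (-1.72 ± 0.16) and Col1a2 (-1.70 ± 0.24) also lower. Endothelial genes rose in 9 and fell in 1 of 12 (6 and 0 at least 2-fold; median 1.00), and 2 of them were dim in both groups. Kdr, a receptor of vascular endothelial growth factor, went from 8.10, 8.24, 8.01 and 8.07 to 11.95, 11.86, 11.70 and 12.19 (3.82 ± 0.12), and its relative Flt1 rose by 2.54 ± 0.16 and endoglin, Eng, by 1.63 ± 0.11, while Cdh5, the defining cadherin of endothelium, reached only 8.31 to 8.70.

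Lymphocyte and granulocyte genes were measured as markers of other cells in the gate. T cell markers rose in 5 and fell in 3 of 13 (0 and 1 at least 2-fold; median 0.22), shares no higher than those of all genes. Lower were Cd2, an adhesion receptor (-1.45 ± 0.14), the T cell receptor subunit Cd247 (-0.89 ± 0.11, and not called after the ribosomal scaling at -0.19) and the costimulatory receptor Cd28 (-0.69 ± 0.16, turning to 0.01 after the ribosomal scaling), and the transcription factor Bcl11b was higher (0.74 ± 0.14). Cd3e, which defines T cells, was at 8.88, 8.57, 8.43 and 8.50 and 8.70, 8.88, 8.81 and 8.81 (0.21 ± 0.12, adjusted p = 0.129). B and plasma cell markers rose in 5 and fell in 0 of 12 (2 and 0 at least 2-fold; median 0.24). The share called higher was no larger than the 44.6% of all genes. Ms4a1, the CD20 gene, lay at 8.58 to 9.23 and 8.69 to 9.48, overlapping, and Cd79a, of the B cell receptor, was higher by 2.02 ± 0.30. Mzb1, a plasma cell chaperone (1.68 ± 0.28), Fcrla (0.63 ± 0.17) and the B cell factor Pax5 (0.56 ± 0.18) were higher too. NK cell and ILC markers rose in 8 and fell in 6 of 18 (5 and 0 at least 2-fold; median 0.09). The shares called were near those of all genes (44.6% higher and 32.3% lower). Ncr1, which defines NK cells, differed by -0.40 ± 0.16 (0.30 after the ribosomal scaling) with overlapping groups, while the granzyme Gzmb rose from 8.43, 8.25, 8.57 and 8.98 to 12.17, 12.69, 11.83 and 12.79 (3.81 ± 0.22), the receptor genes Il7r by 3.55 ± 0.12 and Il2rb by 1.96 ± 0.16 and the chemokine Xcl1 by 2.79 ± 0.16. Cd3e and Ncr1 were not called higher in these arrays, but after the ribosomal scaling both were (0.91 and 0.30), and Cd3e was also called without steady-state replicate 1 (0.30). The lower call of Ncr1 was lost without PBS replicate 3 and with the replicate block. Neutrophil markers rose in 8 and fell in 1 of 13 (5 and 1 at least 2-fold; median 0.54), 3 of them dim in both groups, with S100a8, a calcium-binding alarmin, at 10.40, 10.25, 10.62 and 10.78 and 11.32, 11.82, 12.61 and 11.42. The iron-binding Lcn2 (3.26 ± 0.25), the collagenase Mmp8 (2.73 ± 0.18) and the receptor Csf3r (2.08 ± 0.13) were higher as well. Mast cell and basophil markers rose in 9 and fell in 1 of 13, but only 2 and 0 at least 2-fold (median 0.49), and 4 were dim in both groups. Hdc, the histamine-forming enzyme, rose by 4.28 ± 0.16, the receptor Kit by 0.78 ± 0.14 and the transcription factor Gata2 by 0.71 ± 0.15, while Tpsab1, a mast cell tryptase, stayed dim (5.51 to 5.88 and 6.54 to 7.25). Of 3 erythroid genes 2 rose and 0 fell (0 and 0 at least 2-fold; median 0.32), the globin gene Hba-a1 (0.37 ± 0.16) and Slc4a1 (0.32 ± 0.10).

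Cell division genes were lower after culture. Of 22 mitosis genes 21 fell and 1 rose (17 and 0 at least 2-fold; median -1.83), and of 22 DNA replication genes 14 fell and 3 rose (12 and 0 at least 2-fold; median -1.09). Mki67, the Ki-67 proliferation antigen, lay at 12.18, 12.16, 12.01 and 12.20 at steady state and at 10.14, 10.42, 9.84 and 10.05 in PBS culture (-2.02 ± 0.13, adjusted p = 7.87e-08). The spindle checkpoint kinase Bub1 fell by -2.93 ± 0.18, Birc5 (survivin) by -2.72 ± 0.12, the ribonucleotide reductase subunit Rrm2 by -2.79 ± 0.30 and the polymerase subunit Pola1 by -3.23 ± 0.17. Nusap1, a spindle protein (-2.91 ± 0.32), the topoisomerase Top2a (-2.72 ± 0.20) and the helicase subunits Mcm7 (-2.41 ± 0.13) and Mcm5 (-2.03 ± 0.13) fell as well. The mitosis gene that rose was Tpx2, a spindle protein (0.78 ± 0.12), whose other probe sets reached as low as -1.44, so its direction is uncertain. Cdkn1a, the cyclin-dependent kinase inhibitor p21, rose from 10.31, 9.82, 10.31 and 10.53 to 13.08, 13.03, 13.13 and 12.98 (2.81 ± 0.14). It belongs to the 20 survival and death regulators, of which 15 rose and 2 fell (7 and 1 at least 2-fold; median 0.84), with Mdm2 (2.50 ± 0.10), Bak1 (2.55 ± 0.16) and the death receptor Fas (2.36 ± 0.13) also higher.

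Immediate early genes, which cell isolation is known to induce and many of which encode transcription factors, were more often higher at steady state than in PBS culture. Of 25 immediate early genes 13 fell and 9 rose (10 and 4 at least 2-fold; median -0.24 (0.46 after the ribosomal scaling)). Fos went from 13.73, 13.64, 13.72 and 14.09 to 11.23, 10.43, 11.53 and 10.73 (-2.81 ± 0.21), and Egr1 from 12.10, 12.44, 12.52 and 12.94 to 9.38, 9.66, 9.59 and 9.56 (-2.95 ± 0.16). Fosb (-4.17 ± 0.14), Klf2 (-3.70 ± 0.15) and Nr4a1 (-3.09 ± 0.17), also early transcription factors, were lower without overlap. The heat shock list was divided (5 higher and 6 lower of 13, 1 and 2 at least 2-fold; median 0.029), with the inducible chaperone gene Hspa1b falling by 2.35 and its cochaperone Bag3 rising by 1.01. Hspa1a, the near-identical copy of Hspa1b (-1.32 ± 0.19), and the small heat shock gene Cryab (-0.97 ± 0.34, and not called after the ribosomal scaling at -0.27) were lower. Unfolded protein response genes fell in 7 and rose in 4 of 15 (4 and 0 at least 2-fold; median -0.12 (0.58 after the ribosomal scaling)), led by Herpud1 (-1.65 ± 0.14), a factor in the disposal of misfolded proteins, and the chaperone genes Pdia4 (-1.58 ± 0.13), Sdf2l1 (-1.37 ± 0.10) and Dnajc3 (-1.20 ± 0.10).

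Genes of the antioxidant and amino acid responses were mostly higher. Of 16 NRF2 antioxidant and iron genes 12 rose and 3 fell (9 and 1 at least 2-fold; median 1.55), with Nqo1 (3.58 ± 0.20) and Srxn1 (3.14 ± 0.16) higher and Tfrc, the transferrin receptor for iron uptake, lower by -3.10 ± 0.15. The cystine importer Slc7a11, also known as an NRF2 target, lay at 5.82, 5.89, 5.98 and 6.32 at steady state and at 10.55, 10.89, 11.37 and 10.27 in PBS culture (4.77 ± 0.21). Slc7a11 counts both in this list and in the amino acid response list. In the latter, 12 of 18 rose and 4 fell, with 6 and 0 at least 2-fold and a median of 0.42. Its partner chain Slc3a2 (1.71 ± 0.09) and the stress factors Ddit3 (1.97 ± 0.11) and Trib3 (1.53 ± 0.16) were among those that rose. The cultures were kept in RPMI medium with serum and beta-mercaptoethanol, and the part of the medium was not tested.

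Energy and lipid genes split, and the median of the cholesterol synthesis and uptake list was -0.025 after the ribosomal scaling. Glycolysis genes rose in 8 and fell in 2 of 13 (4 and 0 at least 2-fold; median 0.29), with the glucose transporter Slc2a1 (1.87 ± 0.12) and Pfkfb3, a stimulator of glycolysis (1.78 ± 0.10), highest, and the lactate exporter Slc16a3 (1.58 ± 0.21) and pyruvate kinase, Pkm (1.22 ± 0.10), next. Oxidative phosphorylation subunits fell in 20 and rose in 1 of 23 (median -0.56 (0.14 after the ribosomal scaling)). The falls were small: 3 of 23 reached 2-fold, a share near the 13.5% of all genes, namely Sdha (-1.19 ± 0.11), Ndufa9 (-1.18 ± 0.13) and Ndufb5 (-1.16 ± 0.11), and Ndufa4 was next (-0.85 ± 0.10, and not called after the ribosomal scaling at -0.15). Ribosomal protein genes fell in 12 and rose in 0 of 13 (1 and 0 at least 2-fold; median -0.67 (0.034 after the ribosomal scaling)), with Rps6 (-2.06 ± 0.27), Rpl4 (-0.96 ± 0.10), Rpl7 (-0.87 ± 0.09, and not called after the ribosomal scaling at -0.17) and Rps4x (-0.86 ± 0.09, and not called after the ribosomal scaling at -0.16) lowest. Hypoxia targets had no common direction (7 higher and 3 lower of 14, 2 and 1 at least 2-fold; median 0.20), with Ndrg1 (2.13 ± 0.18) and the collagen hydroxylase P4ha1 (1.14 ± 0.11) higher and the oxygen sensor Egln1 (-1.78 ± 0.10) and P4ha2 (-0.93 ± 0.15, and not called after the ribosomal scaling at -0.23) lower. Cholesterol synthesis and uptake genes fell in 16 and rose in 1 of 18 (6 and 0 at least 2-fold; median -0.73), among them Dhcr7, an enzyme of the last steps (-2.37 ± 0.16), Sqle, squalene epoxidase (-1.99 ± 0.19), Insig1, a sensor that restrains synthesis (-1.55 ± 0.11), and Stard4, a sterol carrier (-2.85 ± 0.11). Cholesterol efflux and lipid genes went both ways (6 higher and 5 lower of 14, 4 and 4 at least 2-fold; median -0.091 (0.61 after the ribosomal scaling)): the exporter Abcg1 (1.80 ± 0.11) and its activator Nr1h3 (LXR alpha, 2.80 ± 0.17) rose, while the lipoprotein lipase gene Lpl fell by 2.04, the HDL receptor Scarb1 by -1.70 ± 0.11 and the exporter Abca1 by -1.32 ± 0.13.

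Surface, matrix and tolerance genes completed the lists. Of 20 adhesion molecules 9 rose and 9 fell (4 and 4 at least 2-fold; median -0.12 (0.58 after the ribosomal scaling)), with Vcam1 (3.00 ± 0.22) and the fibronectin receptor subunit Itga5 (2.65 ± 0.13) higher and Itgb5 (-3.04 ± 0.13) and Itga6 (-2.69 ± 0.12) lower. Of 15 matrix proteases and inhibitors 8 rose and 3 fell (8 and 2 at least 2-fold; median 1.58): Timp1, a protease inhibitor, went from 6.28, 6.38, 6.69 and 7.30 to 11.14, 12.18, 10.75 and 11.31 (4.68 ± 0.29), while the gelatinase Mmp9 fell from 12.41, 11.89, 11.78 and 11.62 to 8.74, 8.42, 8.74 and 8.27 (-3.38 ± 0.17). The membrane protease Mmp14 (3.38 ± 0.14) and the collagenase Mmp13 (3.12 ± 0.20) rose. Tolerance genes rose in 11 and fell in 3 of 16 (7 and 3 at least 2-fold; median 0.65), among them Socs1, an inhibitor of cytokine signalling (2.77 ± 0.19), and Ido1, which breaks down tryptophan and restrains T cells, rose from 5.79, 5.92, 5.79 and 5.76 to 9.79, 10.12, 9.63 and 10.06 (4.09 ± 0.12). Lysosomal genes (12 higher and 5 lower of 24, 3 and 2 at least 2-fold; median 0.21) included the protease Ctsk (3.61 ± 0.20) and the melanosome and lysosome glycoprotein Gpnmb (4.12 ± 0.14), both higher, and the hydrolases Glb1 (-2.20 ± 0.16) and Hexa (-1.82 ± 0.11), both lower. Complement genes (4 higher and 5 lower of 12, 3 and 3 at least 2-fold; median 0.087) included factor B, Cfb (2.80 ± 0.10), and C2 (1.55 ± 0.16), higher, and properdin, Cfp (-1.90 ± 0.13), and C1qc (-1.24 ± 0.11), lower.

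The level reached with PBS was set beside that with LPS in the 3 LPS arrays, which were compared in the study with the same PBS arrays, so values are given side by side with no test. Cd86 lay at 13.74, 13.58 and 13.81 with LPS, Cd40 at 13.999, 13.86 and 14.04, Ccr7 at 13.77, 13.77 and 13.48 and Cd274 at 13.09, 13.005 and 13.09. All of these overlapped the PBS arrays. Ifit1 (13.96, 13.81 and 13.83) and Irf7 (13.77, 13.89 and 13.94) likewise overlapped their PBS arrays. The maturation list as a whole overlapped as well, with a mean log2 level of 11.41 to 11.66 with LPS and 11.26 to 11.50 with PBS. The interferon-stimulated list and the costimulator and coinhibitor list did not overlap between the cultures. The mean log2 level of interferon-stimulated genes was 13.28 to 13.34 with LPS, below the 13.418 to 13.455 with PBS. For costimulators and coinhibitors it was 10.73 to 10.88 with LPS, above the 10.44 to 10.69 with PBS. Other genes were further up with LPS: Il1b lay at 13.17, 13.28 and 13.15 against 11.04 to 11.66 with PBS, Il1a at 11.21, 10.76 and 10.86 against 8.68 to 9.34, and Csf3, a granulocyte growth factor, at 11.57, 10.53 and 11.57 against 7.63 to 8.93. Il10 (10.89, 11.29 and 10.69 against 9.02 to 9.55), the IL-12 subunit Il12a (9.93, 9.45 and 9.37 against 7.35 to 8.27), Cd80 (11.49, 11.44 and 11.01 against 10.13 to 10.56) and the neutrophil chemokine Cxcl1 (13.51, 13.41 and 13.40 against 11.24 to 11.90) did not overlap between the cultures either. Ebi3, a subunit of IL-27 and IL-35, was lower with PBS than at steady state (11.13 to 11.30 against 11.49 to 11.72) and at 12.14, 12.05 and 12.27 with LPS. Its difference of -0.43 turned to 0.27 after the ribosomal scaling. Cd14 lay at 13.05, 13.40 and 13.42 with LPS, above its PBS arrays and within the range of its steady-state arrays.

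The culture difference was measured again in NOD mice, which share no array with C57BL/6. In NOD, 67.1% of probe sets were called, and across the 18193 genes the differences of the strains had a Pearson r of 0.923, a description over genes that are not independent. Of the 3866 genes called at least 2-fold in C57BL/6, 3762 were called in the same direction in NOD. By sign alone, 98.97% of these genes and 89.62% of all genes moved the same way in NOD. The interaction, the test of whether the difference itself depended on strain, was called for 6.80% of probe sets and 7.81% of genes, 664 of those 3866 among them. The 3866 were chosen by their C57BL/6 difference, a term of the interaction. Their share therefore cannot be compared fairly with that of all genes. The maturation list had a median of 1.80 in C57BL/6 and 1.82 in NOD, and the acinar list -2.26 and -2.34. Within these lists the interaction was called in 7 of 30 maturation genes, 6 of them higher in NOD, and in 1 of 26 acinar transcripts. Of the 23 cytokines and mediators 9 had it called, 9 higher in NOD.

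**Figure D5:**
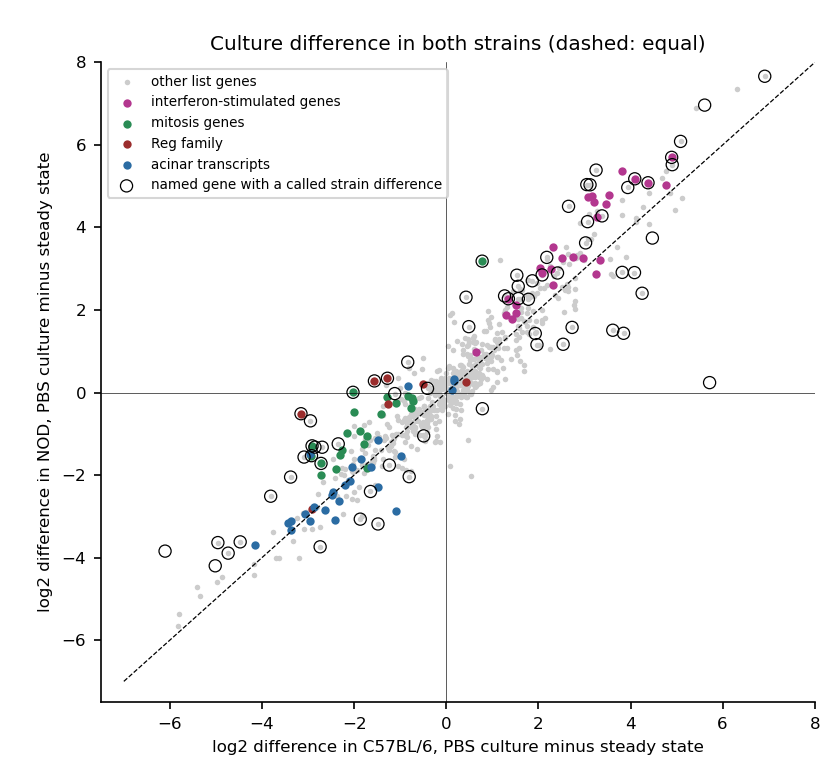
Log2 difference of culture in C57BL/6 (x axis) and NOD (y axis) for the genes of the lists, with 4 lists coloured, the dashed line marking equal differences and rings around the genes named here, on a list or not, whose interaction was called. Most genes lie along the line, and Pcp4 lies far from it, at 5.72 in C57BL/6 and 0.24 in NOD.

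The strains differed most in a few genes. Pcp4, a calmodulin-binding protein, rose in C57BL/6 from 6.79, 6.47, 6.47 and 6.88 to 12.58, 12.59, 11.91 and 12.39. In NOD it lay at 6.91, 6.24 and 7.09 at steady state and at 7.2, 6.77, 7.07 and 6.89 with PBS. The difference of 5.72 ± 0.16 in C57BL/6 thus stood against 0.24 in NOD (interaction -5.48 ± 0.27, adjusted p = 1.78e-09). All NOD values of Pcp4 lay near its dim steady-state level in C57BL/6. Whether the probe set detects the NOD transcript equally well was not tested. Mki67 fell in C57BL/6 and differed by 0.01 in NOD (interaction 2.03 ± 0.23, adjusted p = 2.92e-05), and 15 of the 22 mitosis genes had the interaction called, 15 of them higher in NOD. The mean log2 level of the mitosis list was 9.34 to 9.62 in C57BL/6 and 8.30 to 8.43 in NOD at steady state, and 7.52 to 7.96 and 7.60 to 7.69 in PBS culture, so the strains lay further apart before culture than after it. Interferon-stimulated genes rose further in NOD, with a median of 3.25 and the interaction called in 20 of 27, 20 of them higher in NOD. Their mean log2 level was lower in NOD at steady state (9.94 to 10.06 against 10.58 to 10.68) and nearly equal in PBS culture (13.50 to 13.55 against 13.42 to 13.46). Cd14 fell in C57BL/6 (-0.84) and rose in NOD (0.74; interaction 1.57 ± 0.23, adjusted p = 3.74e-04). H2-DMa fell further in NOD (-3.19 against -1.48; interaction adjusted p = 3.04e-04), and 5 of 11 MHC class II pathway genes had the interaction called, 0 of them higher in NOD. Cxcl9 rose less in NOD (1.44 against 3.85; adjusted p = 6.09e-04). Within the Reg family 5 of 7 genes had the interaction called, 5 higher in NOD, where the median was 0.20, and Reg3b, for example, differed by -1.56 in C57BL/6 and by 0.28 in NOD (adjusted p = 0.00334). The mean log2 level of this list was already lower in NOD at steady state (7.22 to 7.69 against 8.91 to 9.51). In PBS culture it was 6.94 to 7.16 in NOD and 6.89 to 8.55 in C57BL/6. Both the loss of acinar transcripts and the maturation genes that led the list, such as Ccr7 (4.13 and 4.22; interaction adjusted p = 0.89), were measured in each strain.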

How the data were processed

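RNA of sorted pancreas DCs was amplified with Ovation Pico WTA v2 and measured on Mouse Genome 430 2.0 arrays. The deposited log2 values were made from the scans by the authors with RMA, in a tool whose version is not stated here. The 64 AFFX controls among 45101 probe sets were dropped. The remainder comprised 34945 with a single gene name, 932 with several names and 9160 with none here. The brightest probe set naming only that gene stands for each gene.

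The C57BL/6 fit used limma (version 3.58.1, under R 4.3.3) on its 8 arrays alone, with no intensity filter, and the interaction on the steady-state and PBS arrays of both strains. The threshold was an adjusted p (Benjamini-Hochberg) under 0.1 over 45037 probe sets. SE is the moderated standard error, and p-values measure the spread between pools. On simulated arrays with the measured spread and 200 of 45037 probe sets changed, limma recovered 93.0% of changes of log2 1. It recovered 0.5% of those of log2 0.5, and of its calls at log2 1, 11.8% were false. In the data 72.7% of probe sets were called, which makes the cutoff on p far looser than in the simulation. These shares therefore do not carry over to the data. Alternatives were a threshold of 0.05, a filter on dim probe sets, a joint fit of the 22 arrays, centring by medians or by the ribosomal list, an intensity trend, array weights, the replicate block, each array left out, and 1 or averaged probe sets per gene.

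The members and the 48 gene lists, with 735 genes, were chosen with earlier results of these data known. Some genes stand on several lists. The genes named are the 12 largest rises and falls without overlap, the 4 most changed called members per list, and a set of defining markers, 220 genes in all. Pnlip and Ins1, also in that set, had no probe set that names them alone. Outside this rule, 28 genes were chosen after their values were seen: Abca1, Adgre1, Batf3, Cd3e, Csf1r, Csf3, Cxcl1, Ebi3, Fcgr1, Fos, H2-Ab1, Ifnb1, Il12a, Il1a, Il6, Irf4, Mrc1, Ms4a1, Ncr1, Oas1a, S100a8, Serpinb9, Siglech, Spic, Tnf, Tnfrsf9, Tpx2 and Xcr1. The 2-fold rule and the motif search in interferon-stimulated genes were also added after the data were seen. Figures were drawn with matplotlib 3.10.9.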

Additional observations from a re-analysis of the deposited data

Results flagged for a closer look

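Of the 248 genes given with values, 69 had a culture difference that differed between the strains by the limma interaction (adjusted p from 1.78e-09 to 0.0947), 50 of them higher in NOD. Of all genes 7.81% had it called. Many of the 248 were named for the size of their C57BL/6 difference, which is also a term of the interaction. Their share therefore cannot be compared fairly with that of all genes. Each value below is the NOD difference minus the C57BL/6 difference on the log2 scale.

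Among inflammatory genes the value was above 0 for Acod1 (0.75), Csf3 (2.14), Cxcl1 (1.88), Cxcl10 (0.62), Il1a (1.86), Il1b (1.11), Il6 (1.99), Il10 (1.08) and Tnf (1.07), and below 0 for Cxcl9 (-2.41), Ifnb1 (-0.73) and Ido1 (-1.18). Interferon-stimulated and class I genes with a larger rise in NOD were Ifit1 (1.09), Ifit1bl1 (1.36), Irf7 (0.70), Cmpk2 (0.81), Oas1a (0.92) and Nlrc5 (0.71). Of maturation and costimulatory genes, Cd40 (0.77), Cd83 (0.51), Tnfsf4 (1.03) and Traf1 (0.48) lay above 0 and Slamf1 (-1.85) below. For antigen presentation and sensing, values were below 0 for H2-Ab1 (-0.56), H2-DMa (-1.70), H2-DMb2 (-1.23) and Tlr9 (-0.81) and above 0 for Cd14 (1.57) and Clec4e (1.00). Other immune genes were Ms4a4c (0.60), above 0, and C1qc (-0.52), Kit (-1.18), Mmp8 (-1.15) and S100a4 (-1.20), below 0.

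Genes that fell less in NOD included Mrc1 (0.85), Cx3cr1 (0.84), Mctp1 (2.26), F13a1 (1.32), Kmo (1.53), Irf4 (1.09), Rgs18 (0.82), Itga6 (1.37), Mmp9 (1.33) and Col3a1 (1.30), while Ccr2 (-1.0) fell further. Cell division and early genes were Mki67 (2.03), Bub1 (1.4), Tpx2 (2.40), Nusap1 (1.62), Top2a (1.00), Egr1 (2.26), Nr4a1 (1.52) and Hspa1b (1.10), and among the secreted Reg lectins and matrix proteases values were above 0 for Reg2 (2.64), Reg3a (1.62), Reg3b (1.84), Mmp13 (1.91) and Mmp14 (0.90). Metabolic and stress genes were Slc2a1 (0.84), Pfkfb3 (0.48), Trib3 (1.31) and Car2 (1.09), above 0, and Herpud1 (-0.75), Hmox1 (-0.50) and Ctsk (-2.10), below 0. The endothelial genes did not share a sign, with Cdh5 (1.01), Kdr (-0.91) and Flt1 (-1.37). The largest value, in either direction, belonged to Pcp4 (-5.48).

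In 22 of the 496 groups of 4 arrays examined, 1 array stood apart from the other 3, where chance gives about 1 in 20. PBS replicate 3 was highest for Abca9 (6.46), Cd8a (10.34) and Xcr1 (7.28) and lowest for Cd86 (13.58), Cxcl9 (13.06), Irf4 (9.55), Nusap1 (5.84), Poglut3 (5.03) and Trib3 (9.33). Steady-state replicate 6 was highest for Cxcl3 (5.95), Ly75 (7.43), Naaa (12.33) and Slamf1 (6.87) and lowest for C1qc (14.04). PBS replicate 1 was highest for Reg3a (6.74) and Rps4x (12.85) and lowest for Cdh5 (8.31). Steady-state replicate 4 was lowest for Ccl17 (10.74) and Ms4a1 (8.58). PBS replicate 4 was highest for Ccr2 (10.28). Steady-state replicate 1 was highest for Sdf2l1 (11.97). Steady-state replicate 5 was highest for Sst (8.24). None of these arrays turned the direction of the gene's difference when left out.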

How the results depend on the processing

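The count of probe sets called for culture in C57BL/6 (32735) lay between 30619 and 33192 when each array was left out in turn. It was 17930 without the dimmer 50% of probe sets, of 22519 tested, and 14200 with 1 probe set per gene and 14394 with averaged probe sets, of 18193, where fewer features were tested. An adjusted p under 0.05 gave 29769. The interaction count (3063) was more open: 2037 at an adjusted p under 0.05, 5586 with array weights, 649 with the replicate block, and 1955 to 3232 with an array left out, lowest without NOD steady-state replicate 4. The cause was not tested.

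Replicate numbers 1 and 4 occur in both groups, with residual correlations of 0.177 and -0.0328, which do not settle whether such arrays come from a single sort. With the replicate block 25673 probe sets were called for culture, the calls of Il1b, Flt3, Zbtb46, Ins2, Ncr1, Cdh1, Cryab, Fcrla and Krt7 were lost, and Siglech and Cxcl1 gained one.

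Of the 248 genes, 242 were called. With an array left out 5 of these (Il1b, Ins2, Ncr1, Hba-a1 and Krt7) lost the call, 3 others gained one (Cd3e, Cxcl1 and Siglech) and none reversed. Hba-a1 lost it without steady-state replicate 4 or 6 or PBS replicate 1 or 2 (0.27 to 0.33), and Krt7 without steady-state replicate 4 or 5 or PBS replicate 3 or 4 (-0.22 to -0.20). Cxcl1 gained it without steady-state replicate 6 (0.71). Scaling to the ribosomal proteins ended 11 calls (Cd14, Cd247, Cdh1, Cryab, H2-DMb2, Itgam, Ndufa4, P4ha2, Ptprc, Rpl7 and Rps4x). It turned Cd28 (0.011), Cd83 (0.29), Ebi3 (0.27), H2-Ab1 (0.21), Il12b (0.64), Krt7 (0.45) and Ncr1 (0.30), and the medians of the MHC class II (0.21), immediate early (0.46), unfolded protein (0.58), oxidative phosphorylation (0.14), cholesterol efflux (0.61), adhesion (0.58), ribosomal (0.034), CD8α- DC (0.13), monocyte (0.14) and duct (0.64) lists. The mean over probe sets ended the calls of Zbtb46, Cd247, Cryab, Fcrla and Rps4x, and turned Tpx2 (-0.0071) and the heat shock (-0.10), hypoxia (-0.10) and adhesion (0.091) medians. The heat shock median was also -0.0083 with the replicate block, -0.0041 without steady-state replicate 4 and -0.016 without PBS replicate 1 (range with 1 array left out -0.016 to 0.080). The duct median was 0.18 with the block, the monocyte median 0.44 without dim probe sets, the efflux median 0.044 without PBS replicate 2 (range with 1 array left out -0.13 to 0.044) and the NK cell and ILC median -0.026 without PBS replicate 4 (range -0.026 to 0.28). These medians lay near 0 or below the ribosomal shift. Signal over background limits the dim genes, and 4 arrays a group limit the precision.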
